A study of Homo sapiens with 8 samples.

Results

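bktRNA43 (81 nt) and bktRNA61 (66 nt) were the 2 RNAs of the series with lengths from 61 to 100 nt, and were chosen by their names and lengths, not by their scores. They were 2 of the 14 RNAs with a deposited reactivity profile and held 147 of the 1279 nt measured. All samples came from HEK293T cells, a human embryonic kidney line, that stably overexpressed FLAG-tagged 15.5K, the protein also called SNU13. Complexes caught with an anti-FLAG antibody were treated on the beads with NAI-N3, a SHAPE reagent, in 4 libraries and with DMSO, its solvent and the negative control, in 4 others. RNase H depletion took out rRNA, snRNA and some abundant snoRNAs. The tagged protein was overexpressed in 1 cell line, and the pull-down selected RNAs found with it. The labels do not say whether the cells were 1 clone or whether libraries came from separate cultures.

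SNU13 binds kink-turns, sharp bends in double-stranded RNA that box C (RUGAUGA, where R is A or G) and box D (CUGA) form together in box C/D snoRNAs, the guides of ribose methylation. In those snoRNAs box C lies near the 5′ end and box D near the 3′ end, and in the backward kink-turn RNAs measured here the order is turned round. SHAPE reagents acylate the 2′-hydroxyl of flexible nucleotides, so nucleotides held in base pairs or in a fold tend to react less, and mutational profiling reads the adducts as errors of reverse transcription.

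The sequences below are shown because every position named later refers to them. They are those of the deposited profile, 5′ to 3′, on genome build hg38, with box D (first) and box C (last) in capitals. bktRNA43 lay at chr20:49233772-49233852 on the plus strand and bktRNA61 at chr7:135180215-135180280 on the minus strand.

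bktRNA43: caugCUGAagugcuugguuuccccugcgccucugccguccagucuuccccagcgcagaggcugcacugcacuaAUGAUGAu

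bktRNA61: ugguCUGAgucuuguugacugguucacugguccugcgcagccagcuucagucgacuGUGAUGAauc

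bktRNA43 lay inside the span of DDX27, the gene of a DEAD-box RNA helicase, on the strand of that gene and 14356 nt from its start (RefSeq spans of GRCh38.p14). bktRNA61 lay in no gene span. The nearest spans were CYREN, 7746 nt away, and WDR91, 3559 nt away. Exons, introns and UTRs were not analysed here. The GC content was 58.0% in bktRNA43 and 53.0% in bktRNA61.

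The profile held 1 score per nucleotide for the whole series. No score of a single library was used, the depth behind a score was unknown, and no spread between replicates could be measured. No test was therefore run. Each SD given is over nucleotides, and each rank over RNAs describes these profiles only. Whether a score of exactly 0 was a measured lack of reactivity or a missing estimate is not given in the sources used here. The outermost 2 nt at each end were listed at 0 in each of the 14 RNAs, so these zeros do not tell the RNAs apart.

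The mean score was 0.00789 ± 0.0130 (SD over 81 nt) in bktRNA43 and 0.00718 ± 0.0121 (SD over 66 nt) in bktRNA61. These were ranks 6 and 7 of 14, and the other RNAs had means from 0.00193 to 0.0110. Both profiles rested on few nucleotides. The 10 highest held 58.2% of the summed score in bktRNA43 and 57.8% in bktRNA61, while the medians were 0.00182 and 0.00123. In each RNA the middle was highest and the 3′ side lowest. With the RNA split into 3 equal stretches, the means from 5′ to 3′ were 0.00800, 0.0145 and 0.00116 in bktRNA43 and 0.00735, 0.0121 and 0.00208 in bktRNA61.

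**Figure D1:**
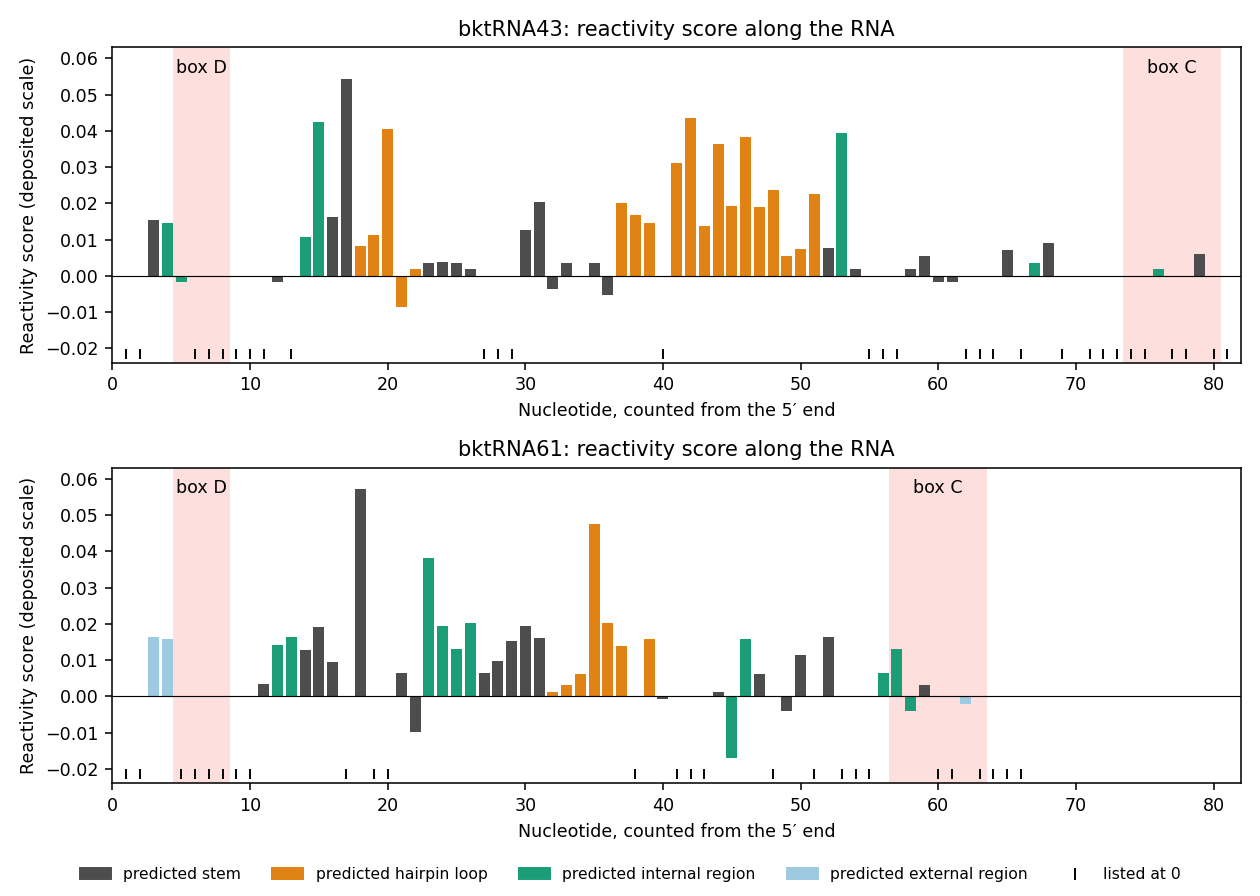
Reactivity score (deposited scale) against nucleotide number from the 5′ end for bktRNA43 and bktRNA61, coloured by predicted region, with ticks at nucleotides listed at 0. The highest scores are 0.0542 at nt 17 of bktRNA43 and 0.0573 at nt 18 of bktRNA61, and the box D nucleotides, nt 5 to 8, are at or below 0 in both.

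The end boxes were low in both RNAs. Box D was CUGA at nt 5 to 8 in each. In bktRNA43 its C scored -0.00180 and its U, G and A were at 0, and in bktRNA61 all 4 nucleotides were at 0. The mean of box D was thus -0.000449 against 0.00833 over the rest of bktRNA43, and 0 against 0.00764 over the rest of bktRNA61. bktRNA43 had the lowest box D mean of the 13 RNAs with a box D.

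Box C was AUGAUGA at nt 74 to 80 of bktRNA43, where 5 of the 7 nucleotides were at 0, nt 80 among them as one of the outermost. The first G scored 0.00186 and the second G 0.00588. In bktRNA61 box C was GUGAUGA at nt 57 to 63. From its first nucleotide to its last, box C of bktRNA61 scored 0.0132, -0.00404, 0.00329, 0, 0, -0.00203 and 0. Its first G was above the same box position in the 12 other RNAs and in bktRNA43. The box C mean was 0.00111 in bktRNA43 and 0.00149 in bktRNA61, below the rest of each RNA by 0.00743 and 0.00637. With medians in place of means these differences were smaller. For box C they were -0.00187 in bktRNA43 and -0.00322 in bktRNA61, and for box D -0.00186 and -0.00325.

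The 3′ end was low outside box C too. Set against the other nucleotides within 20 nt of the same end, box C differed by -0.000424 in bktRNA43 and by -0.00131 in bktRNA61. The same measure for box D was -0.0137 and -0.0103. That window holds high scores further in, at nt 15, 17 and 20 of bktRNA43 (0.0423, 0.0542 and 0.0406) and nt 18 of bktRNA61 (0.0573). The nucleotides directly after box D were about as low as the box. Their mean was -0.000344 over nt 9 to 13 of bktRNA43, and nt 9 and 10 of bktRNA61 were at 0.

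The nucleotides before box D were not low. U at nt 3 and G at nt 4 of bktRNA43 scored 0.0154 and 0.0146, and G at nt 3 and U at nt 4 of bktRNA61 scored 0.0163 and 0.0160. The nucleotides directly after it were low, since both RNAs were at 0 from nt 6 to nt 10, and bktRNA43 also at nt 11. Further on, nt 14 to 17 scored 0.0108, 0.0423, 0.0162 and 0.0542 in bktRNA43 and 0.0128, 0.0192, 0.00955 and 0 in bktRNA61. Aligned at the start of box D, each RNA was above all 11 others at nt 14 and nt 16 and above 10 of them at nt 15. At nt 17 bktRNA43 was above all 11 and bktRNA61 above 0 of them. These positions were picked after their values were seen.

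**Figure D2:**
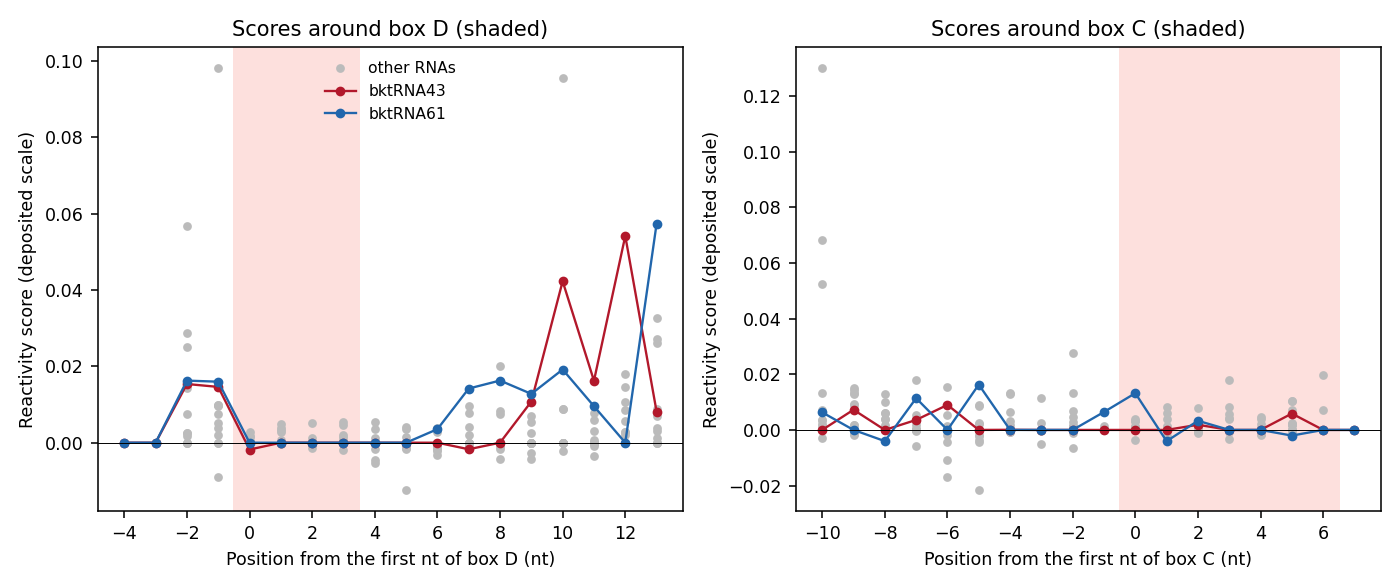
Reactivity score against position from the first nucleotide of box D (left) and of box C (right), with bktRNA43 and bktRNA61 as joined points, the other RNAs in grey and the box shaded. Both RNAs lie at or below 0 in box D, and their scores at nt 3 and 4, before it, and at nt 14 and 16, after it, lie above 0.

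Predicted pairs gave the frame for the middle of each RNA. The minimum free energy structure, predicted from sequence alone at 37 °C without protein, had 22 pairs (-23.1 kcal/mol) in bktRNA43 and 17 pairs (-18.4 kcal/mol) in bktRNA61. That structure made up 1.78% and 13.1% of the predicted ensemble. Such predictions do not model kink-turns, and in each RNA they placed 3 pairs that used box C nucleotides.

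In bktRNA43 the longest predicted helix joined nt 28 to 35 with nt 54 to 61. The mean probability of its pairs was 0.948, and it scored 0.00265 ± 0.00602 (16 nt). The helix next to the boxes, nt 9 to 13 with nt 68 to 72, was lower at 0.000733 ± 0.00295, with 7 of its 10 nt at 0. A short helix of 2 pairs, nt 16 to 17 with nt 23 to 24, had a mean score of 0.0195 ± 0.0239. The mean probability of these 2 pairs was only 0.356. Counted with any partner, the pairing probability was 0.827 at nt 16, 0.826 at nt 17, 0.578 at nt 23 and 0.376 at nt 24. The stems together scored 0.00372 ± 0.00937 (44 nt), and the internal regions, which are bulges, internal loops and multiloops, 0.00737 ± 0.0143 (15 nt).

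The hairpin loops of bktRNA43 stood higher, at 0.0183 ± 0.0143 (20 nt). The large loop, GUCCAGUCUUCCCCA at nt 37 to 51, scored 0.0208 ± 0.0124, and all of its nucleotides but the C at nt 40, which was at 0, were above 0. The small loop, UUUCC at nt 18 to 22, scored 0.0107 ± 0.0184. It held both a peak, 0.0406 at nt 20, and the lowest score of the RNA, -0.00857 at nt 21. Among all 24 predicted hairpin loops of the 14 RNAs, the large loop had rank 11 and the small loop rank 17. In the predicted ensemble, nt 37 and 38 of the large loop had pairing probabilities of 0.564 and 0.522.

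In bktRNA61 the stems scored 0.00587 ± 0.0115 (34 nt) and the single hairpin loop, CCUGCGCA at nt 32 to 39, 0.0135 ± 0.0156 (8 nt), rank 15 of 24. Most of that loop's signal lay on G at nt 35 (0.0476) and C at nt 36 (0.0202). The internal regions scored 0.0124 ± 0.0141 (11 nt), and no nucleotide in them was at 0. One side of an internal loop, UUCA at nt 23 to 26, reached 0.0227 ± 0.0108, and the side across from it, nt 45 to 46, had a mean of -0.000542.

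**Figure D3:**
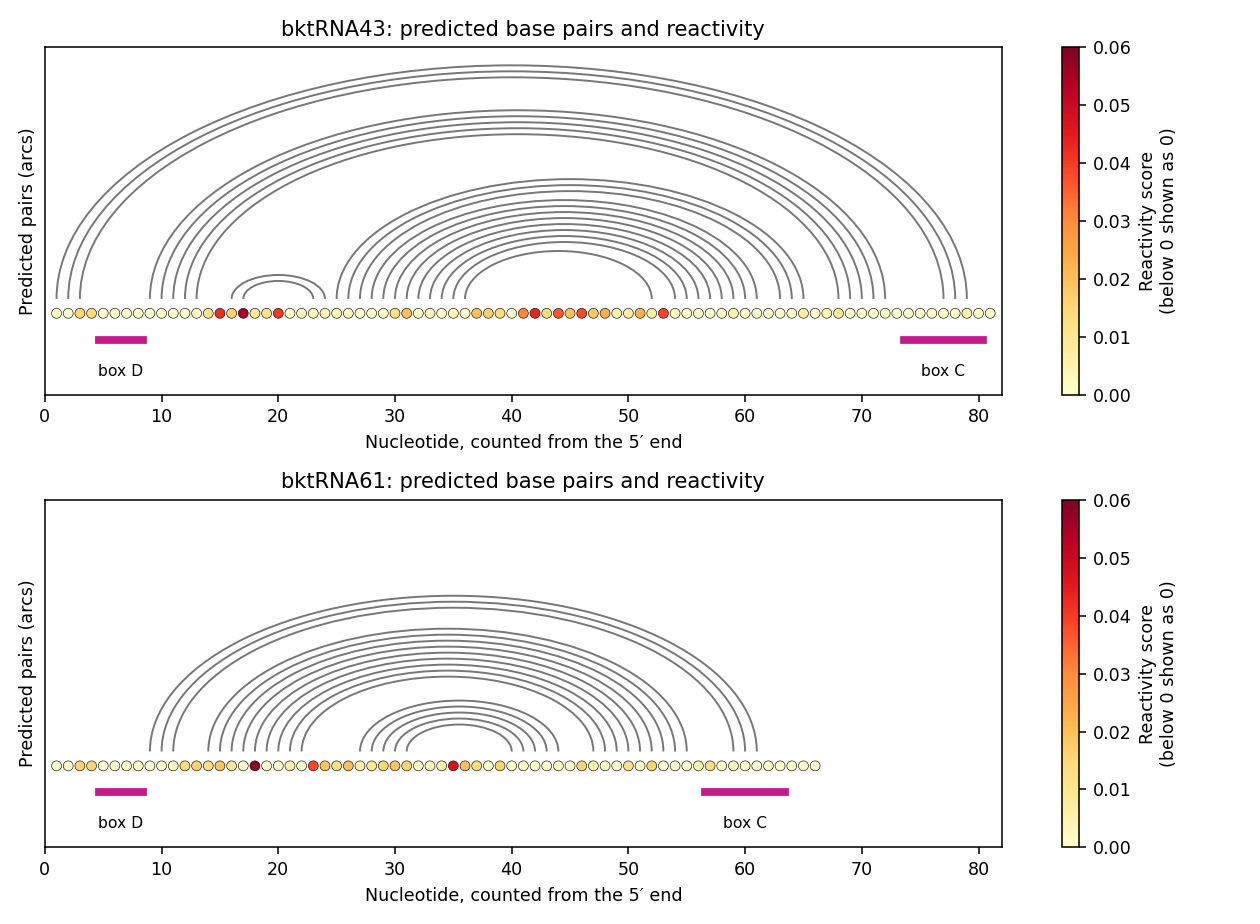
Predicted base pairs of bktRNA43 and bktRNA61 as arcs over the nucleotide number, with each nucleotide coloured by its reactivity score (scores below 0 drawn as 0). The large loop of bktRNA43 (nt 37 to 51) and the internal loop side of bktRNA61 at nt 23 to 26 are among the bright stretches.

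**Figure D4:**
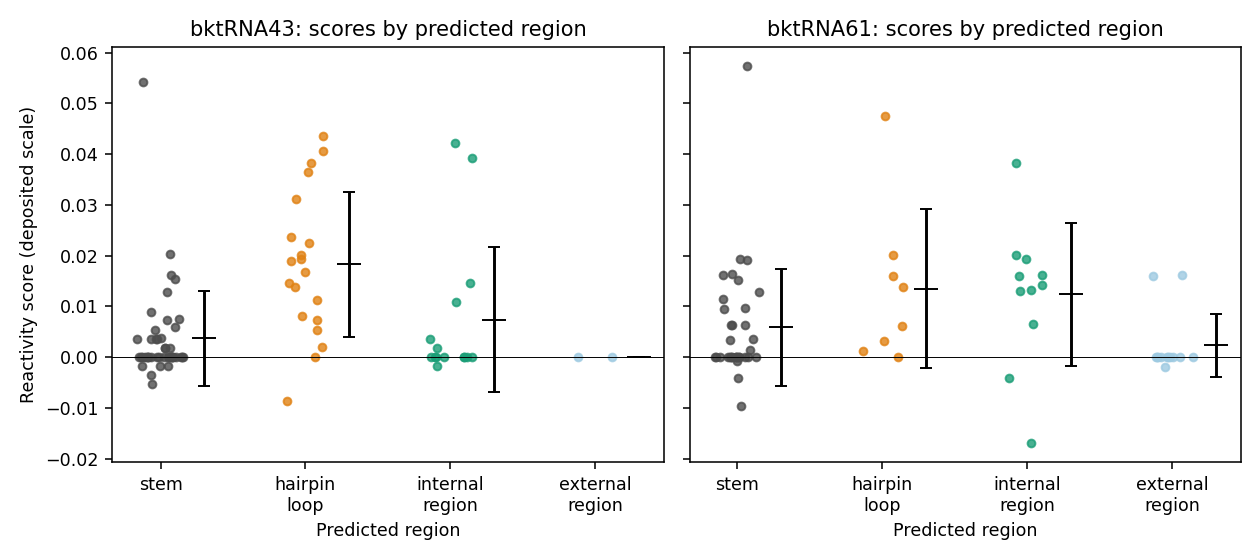
Scores of single nucleotides by predicted region (stem, hairpin loop, internal region, external region) in bktRNA43 and bktRNA61, on the deposited scale. Hairpin loops have means of 0.0183 and 0.0135 against 0.00372 and 0.00587 in stems, and the ranges of single nucleotides overlap.

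Unpaired nucleotides had a mean above that of paired ones by 0.00914 in bktRNA43 (0.0129 against 0.00372) and by 0.00270 in bktRNA61 (0.00857 against 0.00587). These were ranks 4 and 9 of 14. The area under the ROC curve is the chance that an unpaired nucleotide scores above a paired one, with each tie counted as 0.5. It was 0.683 in bktRNA43 and 0.574 in bktRNA61, where 0.5 means no separation. Ties were common, since 19 of 44 stem nucleotides of bktRNA43 and 15 of 34 of bktRNA61 were at 0. The chance of scoring strictly above is therefore lower than these values. In bktRNA61 the difference changed with the treatment of the boxes, of which 8 of 11 nt lay outside its predicted stems. It was 0.00479 with the boxes left out and 0.000509 when the boxes were held unpaired in the prediction. It was 0.00522 with 5 nt taken off each end and 0.00426 without the highest nucleotide.

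The top score of each RNA lay in a predicted stem. In bktRNA43 it was G at nt 17 (0.0542), at the end of the short helix, and its predicted partner, C at nt 23, scored 0.00362. The other 9 of its 10 highest were 7 hairpin loop nucleotides, U at nt 15 (0.0423) and C at nt 53 (0.0393), a bulge in this structure. In the predicted ensemble that C had a pairing probability of 0.573. In bktRNA61 the top score was A at nt 18 (0.0573), inside the helix of nt 14 to 22 with nt 47 to 55. The pairing probability of this A with any partner was 0.987. Its partner, U at nt 51, was at 0.

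bktRNA61 had 4 of its 10 highest scores in stems, against 1 in bktRNA43. Stems held 51.5% of all nucleotides in bktRNA61 and 54.3% in bktRNA43, so both counts were below the share of stems. The 4 lay inside helices, as did 22 of the 34 stem nucleotides of bktRNA61. The tenth score, 0.01628, lay close to the next, 0.01626, and a nucleotide at a helix end, nt 31, followed at 0.0161. Besides nt 18 these were U at nt 15 (0.0192), G at nt 30 (0.0194) and C at nt 52 (0.0163). Their predicted partners at nt 54, 41 and 17 were all at 0, so in each of these pairs only 1 side had a score other than 0.

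Over all stems the 5′ strands had the higher mean in both RNAs, but not in every helix. The 5′ strands scored 0.00976 and the 3′ strands 0.00198 in bktRNA61, a difference of 0.00777 (rank 2 of 14) that came to 0.00480 without its highest nucleotide. The helix of nt 27 to 31 with nt 40 to 44 showed it at every pair, with 0.0134 ± 0.00526 on the 5′ strand and 0.0000966 ± 0.000774 on the 3′ strand. The helix of nt 9 to 11 with nt 59 to 61 was near level, at 0.00118 and 0.00110. In bktRNA43 the strands scored 0.00550 and 0.00194, a difference of 0.00356 that came to 0.00124 without its highest nucleotide and to 0.000449 in the centroid structure. The 3′ strand was the higher in 3 of its 6 helices, among them that of nt 9 to 13 with nt 68 to 72 (-0.000344 on the 5′ strand and 0.00181 on the 3′ strand). Of the 12 other RNAs, 7 had the higher mean on the 5′ strand. The 3′ strands lie further towards the 3′ side, where the last of the 3 equal stretches had the lowest mean in both RNAs (0.00116 and 0.00208). Strand and position along the RNA cannot be told apart here.

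**Figure D5:**
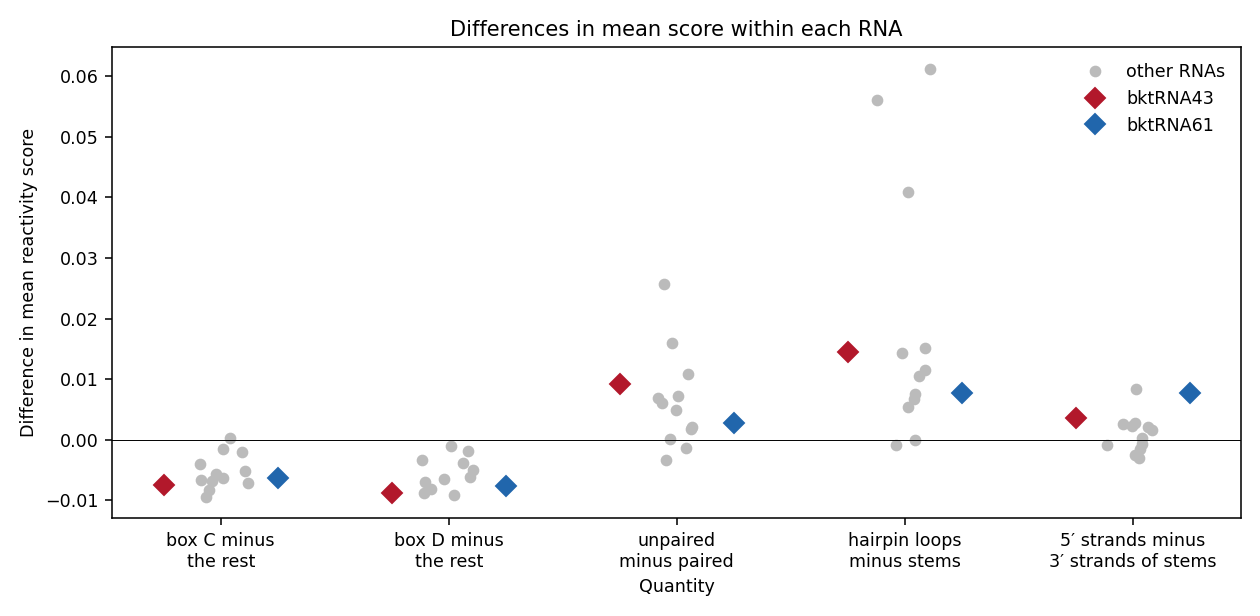
Differences in mean reactivity score within each RNA for 5 quantities, with bktRNA43 and bktRNA61 as diamonds and the other RNAs as grey points. Both lie below 0 for box C and box D and above 0 for unpaired minus paired, hairpin loops minus stems and 5′ minus 3′ strands, within the range of the other RNAs.

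The same 7 letters, CCUGCGC, occurred in both RNAs and fell in different predicted surroundings. In bktRNA43 they were nt 23 to 29, all in stems, and scored 0.00362, 0.00382, 0.00362, 0.00181, 0, 0 and 0. In bktRNA61 they were nt 32 to 38, all in the hairpin loop, and scored 0.00115, 0.00322, 0.00611, 0.0476, 0.0202, 0.0138 and 0. The means were 0.00184 ± 0.00184 and 0.0132 ± 0.0168. The looped copy was higher at 4 of the 7 letters and lower or level at the rest. In bktRNA43 nt 23 and nt 24 belong to the short helix and had pairing probabilities of only 0.578 and 0.376.

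Scores of 0 were common in both RNAs. They made up 30 of 81 nt in bktRNA43 (37.0%, Wilson 95% interval 27.3 to 47.9) and 26 of 66 nt in bktRNA61 (39.4%, 28.5 to 51.5), against 278 of 1132 nt (24.6%, 22.1 to 27.1) in the other RNAs together. The pooled share is lowered by the longest RNA, bktRNA1, with 1.59% of its nucleotides at 0. Per RNA the median of the 12 others was 29.1% and the highest 53.2%, and the shares were ranks 7 (level with bktRNA29) and 5 of 14. Without the outermost 2 nt at each end they were 33.8% in bktRNA43 and 35.5% in bktRNA61. These intervals treat nucleotides as independent and cover counting error only. The longest runs of zeros were nt 6 to 11 of bktRNA43 and nt 5 to 10 of bktRNA61, which begin in box D and run on past it. Runs of 5 nt (nt 71 to 75) and 4 nt (nt 63 to 66) lay towards the 3′ ends and touched box C, and the last 2 nt of the second run are those listed at 0 in every RNA.

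Few scores lay below 0. bktRNA43 had 7 (8.64%) and bktRNA61 had 6 (9.09%), the lowest shares of the 14 RNAs, and the next was bktRNA133 at 9.49%. The median share of the 12 other RNAs was 15.8%. These shares are of all nucleotides, so they also depend on how many were listed at 0. With zeros left aside, bktRNA43 had 7 scores below 0 and 44 above, and bktRNA61 6 and 34. For bktRNA1 these were 34 and 213, a share close to that of bktRNA43 and below that of bktRNA61. In bktRNA43 5 of the 7 were at C, which made up 27 of its 81 nt, and 2 at G. Of the 7, 5 lay in stems, which held 54.3% of its nucleotides. After nt 21 the lowest of bktRNA43 were C at nt 36 (-0.00527) and C at nt 32 (-0.00358). In bktRNA61 3 of the 6 were at G, which made up 19 of its 66 nt, and 1 each at A, C and U. Of these 6, 3 lay in stems, which held 51.5% of its nucleotides.

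The most negative score of bktRNA61, -0.0170, was at C of nt 45 in the internal loop, followed by 0.0159 at nt 46. G at nt 22 (-0.00967) came directly before U at nt 23 (0.0382), and U at nt 58 of box C scored -0.00404. Taken as a floor, the size of the most negative score was passed by 24 nt of bktRNA43, 6 of them in stems, and by 8 nt of bktRNA61, 3 of them in stems.

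U had the highest mean of the 4 bases in both RNAs, at 0.0118 over 21 nt of bktRNA43 and 0.00902 over 21 nt of bktRNA61. A was close to it in bktRNA61 at 0.00895 (10 nt), a value that includes the peak at nt 18, and was lowest in bktRNA43 at 0.00483 (13 nt). C had 0.00557 (27 nt) in bktRNA43 and was lowest in bktRNA61 at 0.00292 (16 nt). By mean, U did not lead once predicted stems and unpaired nucleotides were taken apart. Unpaired G had 0.0160 (5 nt) against 0.0146 (14 nt) for unpaired U in bktRNA43, and 0.0127 (7 nt) against 0.0107 (12 nt) in bktRNA61. In stems, G had 0.00657 against 0.00613 for U in bktRNA43, and A had 0.0107 against 0.00676 for U in bktRNA61. Each of these leading means includes a high peak, at nt 42 and nt 17 in bktRNA43 and nt 35 and nt 18 in bktRNA61. By median, U led in stems, at 0.00362 in bktRNA43 and 0.00631 in bktRNA61. Among unpaired nucleotides G led by median too, at 0.0146 and 0.0132.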

How the data were processed

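Per the labels' protocols, libraries were made from RNA ligated to adaptors at both ends and reverse transcribed under mutational profiling conditions. The deposited file gave each nucleotide a single reactivity score covering all libraries. Its scale, the use of the DMSO libraries and the way the 8 libraries were combined are not given in the sources used here. The submitters' processing notes name cutadapt 3.4, STAR and build hg38.

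Scores were used as deposited. Structures were predicted with ViennaRNA 2.7.2 at 37 °C. Box C allowed 2 mismatches and box D 1. Centroid and other predictions, trimmed ends, medians and zeros taken as not measured were tried as alternatives. The comparison of 5′ with 3′ strands of stems was added after seeing the data. The nucleotides named were, by rule, the 10 highest, the 3 most negative, the box nucleotides and the hairpin loops, and others were chosen after their values were seen. The RNAs and the lists were chosen with earlier results of these data known. The box search, the box differences and the region classes were checked on made-up inputs. The area under the ROC curve and the Wilson interval were each checked on a small example. The other calculations were not checked in this way. Python 3.11.15, NumPy 2.4.6, SciPy 1.17.1, pandas 2.3.3 and matplotlib 3.10.9 were used.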

Additional observations from a re-analysis of the deposited data

How the results depend on the processing

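Of 143 values recomputed under an alternative on the scale of the main value, 125 stayed within the bound (1 SD over the RNAs for differences and means, the Wilson interval for shares and 1.5 times for counts), 18 moved further and 0 reversed. On ranks, a different scale, 10 of 10 differences kept their direction. With zeros taken as not measured, the mean score was 0.0125 in bktRNA43 and 0.0118 in bktRNA61, the box D difference of bktRNA43 was -0.0146 and the box C difference of bktRNA61 was -0.0103. Box D of bktRNA61, all at 0, then gave no value. Medians in place of means were 0.00182 and 0.00123. With medians the box C difference was -0.00187 in bktRNA43 and -0.00322 in bktRNA61, the box D difference -0.00186 and -0.00325, and the difference between strands of stems in bktRNA43 became 0. Against other nucleotides within 20 nt of the end, box C differed by -0.000424 in bktRNA43 and -0.00131 in bktRNA61, and box D of bktRNA43 by -0.0137. Of the 10 highest nucleotides of bktRNA43, 2 lay in stems with the maximum expected accuracy structure and 2 with the ensemble pairing probability. Of its 24 nt above the size of its most negative score, 6 lay in stems. In bktRNA61 2 of the 7 nt above the mean plus 1 SD lay in stems. The last 2 counts are out of sets of another size than the main counts, which are out of 10. No paired analysis was possible because the libraries were merged into a single profile, with no values by replicate number. The limits set by sequencing depth were not tested, since no depth was given. The spread over RNAs is a wide bound for hairpin loops minus stems (0.0199), unpaired minus paired (0.00757) and 5′ minus 3′ strands (0.00344). Values that fell to near 0 could thus count as within it. Examples are 0.000509 for unpaired minus paired of bktRNA61 with the boxes held unpaired, and 0.000449 for the strands of bktRNA43 in the centroid structure. Some alternatives could not change a value, since the centroid and maximum expected accuracy structures of bktRNA61 shared all 17 pairs with the main one.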

Other observations

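Each RNA held a stretch of 6 letters that occurred in it at 2 places. In bktRNA43 UUCCCC at nt 19 to 24, which crosses the small loop and the short helix, had a mean of 0.00876 ± 0.0168, and at nt 45 to 50, in the large loop, 0.0188 ± 0.0119. In bktRNA61 ACUGGU at nt 18 to 23 had a mean of 0.0154 ± 0.0263, and at nt 26 to 31 a mean of 0.0145 ± 0.00547. The 2 copies in bktRNA61 had close means and unlike profiles, since the first ran from -0.00967 to 0.0573 and the second from 0.00637 to 0.0202.

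Over the 36 positions of the aligned ends, the profile most like that of bktRNA43 was bktRNA16 (Spearman's rho 0.648), then bktRNA23 (0.436). For bktRNA61 these were bktRNA17 (0.358) and bktRNA43 (0.310). The order depended on the measure. By Pearson's r the highest were bktRNA1 (0.718) for bktRNA43 and bktRNA105 (0.431) for bktRNA61, and the latter had a Spearman's rho of -0.151. These correlations are across nucleotides, which are not independent, and low ends are shared by the RNAs.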
